A study of Mus musculus with 58 samples.

Results

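Endotoxin and Toll-like receptor sensing was followed through 7 genes, Cd14, Tlr4, Ly96, Tlr2, Tlr7, Tlr13 and Myd88, in Kupffer cells, monocyte-derived macrophages and monocytes of injured mouse livers. The genes were chosen by name, and all 7 were found among the 25307 genes of the table of normalized counts. Endotoxin, the lipopolysaccharide of Gram-negative bacteria, is handed by CD14 to the complex of TLR4 and MD-2, the small protein encoded by Ly96. TLR2 senses bacterial lipoproteins at the cell surface, while TLR7 senses single-stranded RNA and TLR13, a receptor mice have, senses bacterial ribosomal RNA, both in endosomes. All 4 of these receptors signal through the adaptor MYD88 to NF-kB and to inflammatory genes, and Kupffer cells, the resident macrophages of the liver, meet gut-derived endotoxin in portal blood.

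The mice were of the 129SV strain and fell into 5 injury groups. CBDL+DSS combined the advanced cholestatic injury of common bile duct ligation with acute colitis as a second hit, and CBDL6w was the advanced injury alone at 6 weeks. CBDL2w was the onset of cholestatic injury at 2 weeks, DSS was acute colitis without ligation, and Sham6w was the control at 6 weeks. No time is given here for DSS or CBDL+DSS, and no gate for the cell types. Sham6w was the only control, with no sham at 2 weeks. In CBDL2w against Sham6w, ligation and time therefore cannot be told apart, and for DSS and CBDL+DSS the match in time is not known. Messenger RNA of 3 cell types was sequenced from the 3' end in 58 libraries, 20 of Kupffer cells (KC), 19 of monocyte-derived macrophages (MoMF) and 19 of monocytes (Mo). Each of the 15 groups of cell type and injury held 4 libraries, except MoMF Sham6w and Mo Sham6w with 3. In 9 libraries the label joined 2 or 3 replicate numbers, and nothing beyond these numbers says that libraries came from separate animals, so the p-values measure the spread between these libraries.

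Libraries held 228741 to 521954 reads on genes in KC, 118687 to 461071 in MoMF and 235531 to 377725 in Mo. The labels of the cell types were checked against their defining genes. Clec4f, a Kupffer cell lectin, averaged 453 ± 34.7 normalized counts in KC Sham6w, 78.4 ± 43.6 in MoMF Sham6w and 16.8 ± 9.65 in Mo Sham6w (SD), and was lower in every injured KC group, down to 112 ± 66.2 in KC CBDL6w. Of the other Kupffer cell genes, Vsig4, Timd4, Cd163 and C6 were also lower in every injured KC group. Cd5l was not, at 724 ± 59.0 in KC DSS and 697 ± 118 in KC CBDL+DSS, against 611 ± 87.9 in KC Sham6w. Ly6c2, the classical monocyte antigen, averaged 173 ± 47.3 in Mo Sham6w, against 8.03 ± 1.54 in MoMF Sham6w and 0.684 ± 1.01 in KC Sham6w. Spn, which marks patrolling monocytes, was highest in MoMF Sham6w at 59.6 ± 5.72, against 22.7 ± 6.58 in Mo Sham6w and 1.70 ± 2.87 in KC Sham6w. The other patrolling monocyte genes did not share this order. Among controls, Cx3cr1 and Ace were also highest in MoMF, but Nr4a1 was highest in Mo (372 ± 11.7) and Treml4 in KC (37.8 ± 11.9). In bulk libraries such as these, fewer cells of a type and less RNA per cell cannot be told apart.

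Across the series Cd14 was the member with the clearest difference between injured and control livers. It was higher than in Sham6w in MoMF and in Mo, about 5-fold and 2-fold to 3-fold in the means, in CBDL2w and in CBDL+DSS. Tlr7 fell in KC in colitis. No other comparison of injured with control livers passed for any member. Among cell types, Cd14 was lower in KC than in Mo in all 5 injury groups, and Tlr2 in 4 of the 5. In these 5 comparisons 14.4% to 16.0% of all genes passed. No KC library of Tlr2 reached 10 normalized counts. Tests used limma on log2(normalized count + 1) across all genes that reached 10 normalized counts in at least 3 libraries, with Benjamini-Hochberg adjustment and a threshold of 0.05. On this scale the change of a low gene is understated, and a difference is given as the first named group minus the second, with its standard error (SE).

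Of the 7 genes, 3 have an entry in the RefSeq promoter table of GRCm38.p6, which runs from 250 bases before the annotated start to 50 after it. They are shown because they have an entry, and no link between their motifs and the levels of these genes was tested. Capitals mark the matches, on either strand, to the NF-kB consensus in Tlr2, to the interferon-stimulated response element (GAAA, any 2 bases, GAAA) in Myd88 and to the PU.1 core GAGGAA in Tlr13, and all 3 motifs were searched in each promoter. The sequences are given 5′ to 3′ on the strand of the gene, at chr3:83841559-83841858 on the minus strand for Tlr2, at chr9:119339969-119340268 on the minus strand for Myd88 and at chrX:106143025-106143324 on the plus strand for Tlr13.
Tlr2: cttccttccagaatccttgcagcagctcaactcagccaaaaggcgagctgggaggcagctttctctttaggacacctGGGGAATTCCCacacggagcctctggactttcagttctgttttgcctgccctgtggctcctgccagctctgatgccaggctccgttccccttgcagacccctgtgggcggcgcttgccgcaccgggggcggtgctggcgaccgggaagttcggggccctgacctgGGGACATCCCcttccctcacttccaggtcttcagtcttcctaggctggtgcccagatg
Myd88: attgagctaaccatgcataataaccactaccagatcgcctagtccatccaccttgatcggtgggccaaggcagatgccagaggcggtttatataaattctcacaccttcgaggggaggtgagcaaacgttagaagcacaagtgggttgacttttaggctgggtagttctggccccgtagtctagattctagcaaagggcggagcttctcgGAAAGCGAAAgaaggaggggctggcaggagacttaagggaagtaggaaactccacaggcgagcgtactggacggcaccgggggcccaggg
Tlr13: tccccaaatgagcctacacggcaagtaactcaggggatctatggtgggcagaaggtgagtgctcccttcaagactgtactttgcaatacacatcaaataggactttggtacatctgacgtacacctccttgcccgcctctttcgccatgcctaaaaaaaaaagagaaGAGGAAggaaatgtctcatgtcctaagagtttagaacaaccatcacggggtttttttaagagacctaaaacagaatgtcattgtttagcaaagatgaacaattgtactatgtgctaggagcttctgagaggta
In Tlr2 the NF-kB consensus matched at positions -173, -172 and -8 relative to the start, and the matches at -173 and -172 overlap. The match in Myd88 began at -40 and the match in Tlr13 at -83. Of 32851 promoters of this length, 8.46% held the NF-kB consensus, 3.44% the interferon-stimulated response element and 28.3% the PU.1 core. A match describes letters in this window and does not show that a factor binds there.

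Cd14 (ENSMUSG00000051439), the co-receptor that passes endotoxin to TLR4, rose in both MoMF and Mo in CBDL+DSS and CBDL2w. In MoMF it stood at 41.4, 43.4, 51.2 and 40.1 normalized counts in CBDL+DSS and at 52.9, 45.5, 32.4 and 44.8 in CBDL2w, against 9.91, 8.69 and 7.86 in Sham6w. Every library of both injury groups lay far above every control. Of all genes tested, 9.33% lay wholly above the controls in MoMF CBDL+DSS and 7.40% in MoMF CBDL2w. The Cd14 mean in CBDL+DSS was 4.99 times that of Sham6w, a log2 difference of 2.20 ± 0.36 (SE, limma adjusted p = 0.000425). In CBDL2w it was 4.98 times, a log2 difference of 2.18 ± 0.36 (adjusted p = 0.00109). With only the libraries of single replicate numbers, which leaves 1 MoMF Sham6w library, the CBDL2w comparison had an adjusted p of 0.0643.

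In Mo, Cd14 stood at 98.7, 96.2, 125 and 123 normalized counts in CBDL+DSS and at 77.9, 105, 89.8 and 115 in CBDL2w, against 43.3, 31.4 and 48.1 in Sham6w. The groups again did not overlap, as for 12.1% and 10.9% of genes tested, which lay wholly above the controls. The control monocytes already stood near the level of MoMF in CBDL+DSS and CBDL2w. CBDL+DSS was 2.70 times Sham6w, a log2 difference of 1.43 ± 0.30 (limma adjusted p = 0.00334), and CBDL2w was 2.37 times, a log2 difference of 1.23 ± 0.30 (adjusted p = 0.00728). With only single replicate numbers, which leaves 1 Mo Sham6w library, the differences were 1.11 (adjusted p = 0.300) and 0.98 (adjusted p = 0.315). Without the Mo Sham6w library of replicates 3 and 6 the CBDL2w difference was 1.05 (adjusted p = 0.0550).

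Advanced ligation and colitis alone gave smaller Cd14 differences that did not pass. In MoMF, CBDL6w libraries held 18.9, 43.7, 18.4 and 14.2 normalized counts and DSS libraries 7.94, 18.9, 20.8 and 13.6. All 4 CBDL6w libraries stood above the 3 Sham6w libraries, as for 4.08% of genes tested, with replicate 2 well above the other 3. DSS overlapped Sham6w. The log2 difference from Sham6w was 1.21 ± 0.36 in CBDL6w (limma adjusted p = 0.103) and 0.66 ± 0.36 in DSS (adjusted p = 0.351). In Mo, CBDL6w libraries held 62.4, 43.8, 59.6 and 58.1 and DSS libraries 27.2, 80.4, 68.8 and 29.4, and both groups overlapped Sham6w. DSS monocytes split into 2 low and 2 high libraries, and the difference was 0.19 ± 0.30 (adjusted p = 0.792).

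The stages of ligation were also compared with each other. For Cd14 the log2 difference of CBDL6w minus CBDL2w was -0.82 in KC, -0.97 in MoMF and -0.78 in Mo, none of which passed (limma adjusted p = 0.595, 0.582 and 0.565). All 4 CBDL6w libraries lay below all 4 CBDL2w libraries in KC and in Mo, as for 1.83% and 2.09% of genes tested, and not in MoMF. CBDL+DSS minus CBDL6w was 0.90 in KC, 0.99 in MoMF and 0.97 in Mo, and none passed (adjusted p = 0.134, 0.0955 and 0.123). Without MoMF CBDL6w replicate 2 the MoMF difference was 1.31 (adjusted p = 0.0154).

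In Kupffer cells Cd14 stood at 25.8, 19.9, 22.5 and 54.9 normalized counts in CBDL+DSS and at 29.6, 28.3, 22.3 and 27.9 in CBDL2w, against 20.2, 12.7, 13.9 and 14.9 in Sham6w. The CBDL2w libraries lay above all controls, as for 5.33% of genes tested. CBDL+DSS reached into the controls and held 1 library far above the rest. Neither difference passed, at 0.85 ± 0.30 (limma adjusted p = 0.133) and 0.78 ± 0.30 (adjusted p = 0.182). CBDL6w libraries held 11.9, 15.2, 16.3 and 16.0 and DSS libraries 12.5, 23.8, 14.6 and 12.9, both at the level of the controls. Whether the injury effect differed between cell types was tested as well, and for CBDL+DSS the effect on Cd14 in KC minus that in MoMF was -1.34 ± 0.44 (adjusted p = 0.102), or -1.65 without KC CBDL+DSS replicate 6 (adjusted p = 0.0303). The Cd14 gene lies on chromosome 18, 36725067 to 36726798, on the minus strand of GRCm38.

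**Figure D1:**
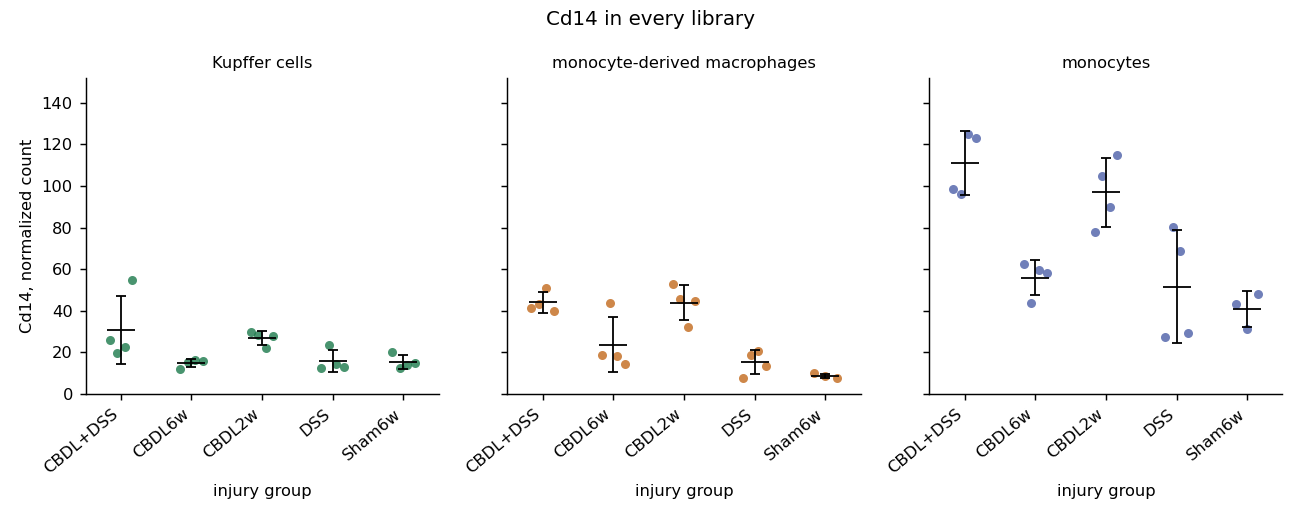
Cd14 in each library as normalized counts on the vertical axis, in 3 panels for KC, MoMF and Mo with the 5 injury groups along the horizontal axis; points are libraries and bars are the mean ± SD. The MoMF libraries of CBDL+DSS and CBDL2w sit between 32.4 and 52.9, above the 3 MoMF Sham6w libraries at 7.86 to 9.91.

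Marker lists of other cell types also lay apart between the groups that differ in Cd14. The 4 classical monocyte genes Ly6c2, Ccr2, Plac8 and Chil3, none of them at 0, together took 0.0959% to 0.122% of reads in MoMF CBDL+DSS and 0.165% to 0.207% in MoMF CBDL2w, against 0.0565% to 0.0910% in MoMF Sham6w. The 4 genes did not share a direction. Ccr2 averaged 261 ± 15.2 normalized counts in MoMF CBDL+DSS and 344 ± 46.2 in MoMF CBDL2w, against 127 ± 72.8 in MoMF Sham6w, whereas Ly6c2 averaged 5.94 ± 4.42 and 4.95 ± 2.30 in these injury groups, against 8.03 ± 1.54 in MoMF Sham6w. Plac8 averaged 33.5 ± 8.54 in MoMF CBDL+DSS, against 61.0 ± 25.0 in MoMF Sham6w. The 6 Kupffer cell genes took 0.0165% to 0.0402% in MoMF CBDL2w and 0.0590% to 0.255% in MoMF Sham6w. In Mo the classical monocyte genes took 0.302% to 0.342% in CBDL+DSS and 0.341% to 0.388% in CBDL2w, against 0.197% to 0.261% in Sham6w. Ly6c2 again went the other way, at 85.1 ± 7.77 normalized counts in Mo CBDL+DSS and 128 ± 17.0 in Mo CBDL2w, against 173 ± 47.3 in Mo Sham6w. The 8 endothelial genes, also none at 0, took 0.0138% to 0.0220% in Mo CBDL+DSS and 0.00951% to 0.0135% in Mo CBDL2w, against 0.171% to 0.259% in Mo Sham6w. In MoMF they took 0.00566% to 0.0194% in CBDL+DSS and 0.00705% to 0.0120% in CBDL2w, against 0.0236% to 0.0367% in Sham6w. The 4 plasmacytoid dendritic cell genes took at most 0.00281% in Mo CBDL+DSS and 0.00324% in Mo CBDL2w, against 0.0211% to 0.0491% in Mo Sham6w. They took at most 0.00210% in MoMF CBDL+DSS and 0.00217% in MoMF CBDL2w, against 0.00440% to 0.0105% in MoMF Sham6w. The 5 patrolling monocyte genes took 0.125% to 0.154% in Mo CBDL+DSS, against 0.176% to 0.204% in Mo Sham6w. They overlapped the controls in Mo CBDL2w and in both MoMF groups. B cell genes and T and NK cell genes also lay below MoMF Sham6w in both MoMF groups, with at most 0.00436% of reads. Hepatocyte genes lay below the controls in MoMF CBDL2w, as did T and NK cell genes in Mo CBDL2w. The dissociation response lay below Mo Sham6w (0.805% to 0.964%) in Mo CBDL2w, at 0.626% to 0.784%. The classical monocyte share was also above the controls in DSS, at 0.144% to 0.181% in MoMF and 0.359% to 0.443% in Mo. Cd14 did not pass there. The part of these markers in the Cd14 result was not tested.

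Between cell types, Cd14 was lower in KC than in Mo in every injury group. The log2 difference was -1.92 ± 0.30 in CBDL+DSS (limma adjusted p = 2.7e-06), -1.84 ± 0.30 in CBDL6w (adjusted p = 6.43e-06) and -1.80 ± 0.30 in CBDL2w (adjusted p = 8.98e-06). It was -1.52 ± 0.30 in DSS (adjusted p = 0.000133) and -1.35 ± 0.32 in Sham6w (adjusted p = 0.00168). The mean in KC was between 0.266 and 0.377 of that in Mo, and the call held in every alternative tried. MoMF were also below Mo in all 5 groups, by -1.31 in CBDL+DSS (adjusted p = 0.00425), -1.32 in CBDL6w (adjusted p = 0.00760), -1.13 in CBDL2w (adjusted p = 0.0298), -1.61 in DSS (adjusted p = 0.000415) and -2.08 in Sham6w (adjusted p = 7.91e-05).

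The MoMF comparison with Mo depended on single libraries in 2 groups and on the joined libraries in 2 others. In CBDL6w it was -1.13 (limma adjusted p = 0.0501) without MoMF replicate 4, and in CBDL2w the adjusted p was 0.0630, 0.135 and 0.0600 without MoMF replicate 2, 3 and 4 and 0.0741 and 0.131 without Mo replicate 2 and 4. With only single replicate numbers the adjusted p was 0.0681 in CBDL+DSS and 0.0934 in Sham6w. The 15 group means of Cd14 ran from 111 ± 15.4 in Mo CBDL+DSS and 96.9 ± 16.4 in Mo CBDL2w down to 8.82 ± 1.03 in MoMF Sham6w. Of neighbours in this order, 2 pairs had libraries that did not overlap, Mo CBDL2w above Mo CBDL6w (56.0 ± 8.33) and KC CBDL6w (14.9 ± 2.03) above MoMF Sham6w.

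Tlr4 (ENSMUSG00000039005, chromosome 4, 66827584 to 66930284, plus strand, GRCm38), the signalling receptor for endotoxin, was read at low depth, and its injury differences could be tested in KC only. All KC libraries together gave 186 reads, MoMF 79 and Mo 85, and the gene passed the filter of the injury fits in KC alone. The KC libraries ranged from 3.66 to 13.9 normalized counts with a median of 7.12, the MoMF libraries from 0 to 8.51 with a median of 2.95, and the Mo libraries from 0.908 to 8.40 with a median of 3.80. The 3 cell types overlapped over most of that span. In KC the 4 differences from Sham6w lay between -0.23 in DSS and 0.36 in CBDL6w (limma adjusted p = 0.780 and 0.722), and none passed. In Mo, untested, libraries held 3.84, 6.25, 5.80 and 3.79 in CBDL6w and 6.56, 7.21, 7.93 and 3.80 in CBDL2w, against 2.62, 3.62 and 1.12 in Sham6w, and both ligation groups lay wholly above the controls. So did 10.3% of genes tested in Mo CBDL6w and 10.9% in Mo CBDL2w. The Tlr4 values of Mo Sham6w rest on 6 reads in all.

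In control livers Tlr4 passed as higher in KC than in MoMF, but the call was lost in 10 of 14 alternatives. No MoMF or Mo library reached 10 normalized counts, so the gene entered this test through KC libraries alone. The KC Sham6w libraries held 4.26, 7.28, 13.9 and 6.64 normalized counts and the MoMF Sham6w libraries 0, 5.43 and 2.95. The groups overlapped, and the library at 0 is the shallowest of the series at 118687 reads, where a count of 0 allows a level of up to 7.43. The log2 difference was 1.51 ± 0.53 (limma adjusted p = 0.0417), and without that library, which joins replicates 1, 2 and 5, it was 0.74 (adjusted p = 0.477). It also missed the threshold without KC Sham6w replicate 2, 3 or 4 (adjusted p = 0.0692, 0.141 and 0.0593), with edgeR (adjusted p = 0.213) and with DESeq2 (adjusted p = 0.235). The call was lost as well with a pseudocount of 5, without the filter, with equal totals and with only single replicate numbers.

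Ly96 (ENSMUSG00000025779, chromosome 1, 16688051 to 16709611, plus strand), which encodes the endotoxin-binding partner of TLR4, stood highest in control Kupffer cells. KC Sham6w libraries held 23.4, 27.3, 29.8 and 16.6 normalized counts. The injured KC libraries held 11.1, 9.14, 17.9 and 14.3 in CBDL+DSS, 9.25, 8.97, 15.4 and 18.1 in CBDL6w, 14.8, 12.9, 11.2 and 14.6 in CBDL2w and 8.05, 16.3, 14.6 and 14.9 in DSS. All of CBDL2w and DSS lay below the controls, as for 5.86% and 8.04% of genes tested. CBDL+DSS and CBDL6w reached into the controls through 1 library each. The log2 differences were -0.85 in CBDL+DSS, -0.89 in CBDL6w, -0.79 in CBDL2w and -0.82 in DSS, and none passed (limma adjusted p = 0.156, 0.130, 0.201 and 0.106).

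Outside KC the Ly96 libraries spread widely, from 0 to 16.8 normalized counts in MoMF (median 7.96) and from 0 to 15.2 in Mo (median 10.5). The MoMF CBDL6w library of replicate 1 and the Mo DSS library of replicate 2 had no Ly96 read, which allows levels of up to 2.58 and 3.22. In control livers Ly96 was higher in KC than in Mo, whose 3 libraries held 5.25, 8.45 and 6.71, with no overlap, as for 11.9% of genes tested. The difference of 1.68 ± 0.60 lay just within the threshold (limma adjusted p = 0.0474). The call was lost without any 1 of KC Sham6w replicates 1, 2 and 3 (adjusted p = 0.0776, 0.0958 and 0.105) or of the Mo Sham6w libraries 1+2+5, 3+6 and 4 (adjusted p = 0.161, 0.0733 and 0.102), and without the filter on low genes (adjusted p = 0.0836). Among neighbours in the order of its 15 group means, KC Sham6w lay apart from KC DSS, the next lower, and the others overlapped.

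Tlr2 (ENSMUSG00000027995, chromosome 3, 83836272 to 83841767, minus strand), the receptor for bacterial lipoproteins whose promoter with 3 NF-kB matches is shown above, had its highest levels in Mo. Mo libraries ranged from 7.35 to 22.7 normalized counts with a median of 13.2, MoMF libraries from 1.96 to 14.7 with a median of 5.61, and KC libraries from 0.830 to 8.94 with a median of 3.26. In KC it was too low to be tested for injury, with 88 reads over 20 libraries. No KC library reached 10 normalized counts, so Tlr2 entered the comparisons between cell types through Mo and MoMF libraries. In control livers the KC libraries held 3.19, 3.03, 2.98 and 0.830 and the MoMF libraries 2.48, 3.26 and 1.96, against 10.5, 21.7 and 16.8 in Mo. Every Mo control was above 10, and no KC or MoMF control reached 4. Of genes tested in control livers, 13.9% lay wholly below Mo in KC and 10.5% in MoMF.

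In Sham6w the KC mean was 0.154 of the Mo mean, a log2 difference of -2.32 ± 0.43 (limma adjusted p = 4.84e-05). The difference was -1.72 ± 0.40 in CBDL+DSS (adjusted p = 0.00138), -2.26 ± 0.40 in CBDL6w (adjusted p = 2.89e-05) and -1.43 ± 0.40 in CBDL2w (adjusted p = 0.00852). In DSS it was -0.95 and did not pass (adjusted p = 0.109), with KC at 8.94, 3.75, 6.41 and 2.98 and Mo at 11.8, 9.65, 16.0 and 7.35. The DSS groups overlapped through KC replicate 1. With only single replicate numbers the CBDL+DSS difference had an adjusted p of 0.0622.

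MoMF differed from Mo in control livers, where Tlr2 was lower by -2.24 ± 0.46 (limma adjusted p = 0.00129). With only single replicate numbers, 1 library in each of these groups, the adjusted p was 0.363. In injured livers the MoMF libraries held 3.68, 13.3, 10.6 and 5.61 normalized counts in CBDL+DSS, 9.44, 7.54, 3.99 and 4.74 in CBDL6w, 8.18, 6.71, 14.7 and 2.99 in CBDL2w and 4.41, 5.54, 5.67 and 5.82 in DSS. They mostly lay above the MoMF controls, but no difference passed, from 0.85 in DSS (adjusted p = 0.443) to 1.26 in CBDL+DSS (adjusted p = 0.152). KC were below MoMF in CBDL6w, with libraries at 1.32, 1.79, 1.92 and 3.20 and a difference of -1.25 ± 0.40 (adjusted p = 0.0356). That call was lost without KC CBDL6w replicate 1, 2 or 3 (adjusted p = 0.109, 0.0706 and 0.0716), without MoMF CBDL6w replicate 1 or 2 (adjusted p = 0.130 and 0.0797) with DESeq2 (adjusted p = 0.0997), with a pseudocount of 5 (adjusted p = 0.0812) and without the filter (adjusted p = 0.128).

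Other markers also separated the cell types that differ in Cd14 and Tlr2. The 6 neutrophil genes took 0.000309% to 0.00455% of reads in KC Sham6w, with Ly6g and Retnlg at 0, and 0.00147% to 0.00506% in MoMF Sham6w, with Ly6g at 0, against 0.0194% to 0.190% in Mo Sham6w. The 10 genes of the dissociation response, immediate early and heat shock genes, took 0.289% to 0.397% in KC Sham6w and 0.592% to 0.713% in MoMF Sham6w, against 0.805% to 0.964% in Mo Sham6w. The endothelial genes took 0.0281% to 0.0521% in KC Sham6w and 0.0236% to 0.0367% in MoMF Sham6w, against 0.171% to 0.259% in Mo Sham6w. In injured livers the neutrophil share of Mo was 0.0373% to 0.0823% in CBDL+DSS, 0.00895% to 0.0367% in CBDL6w and 0.0166% to 0.0406% in CBDL2w. In DSS it was 0.00789% to 0.0684% and overlapped that of KC (0.00406% to 0.0136%). The part of these markers in the differences between cell types was not tested.

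Tlr7 (ENSMUSG00000044583, chromosome X, 167304929 to 167330558, minus strand), the endosomal receptor for single-stranded RNA, fell in Kupffer cells in colitis. KC DSS libraries held 1.79, 3.75, 10.1 and 2.98 normalized counts, against 26.6, 10.3, 14.9 and 16.6 in KC Sham6w. The groups did not overlap, although KC DSS replicate 3 at 10.1 came close to the lowest control at 10.3. In this comparison 8.04% of genes tested lay wholly below the controls. The KC DSS mean of 4.65 was 0.272 of the KC Sham6w mean of 17.1, a log2 difference of -1.81 ± 0.43 (limma adjusted p = 0.0138). The call held in every alternative tried, with adjusted p between 0.00492 and 0.0447.

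Colitis on top of ligation left Tlr7 in KC at 14.6, 6.65, 7.77 and 23.3 normalized counts in CBDL+DSS, against 9.25, 13.4, 10.6 and 8.53 in CBDL6w. The 2 groups overlapped, with a log2 difference of 0.16 ± 0.43 (limma adjusted p = 0.906). The effect of colitis with ligation minus its effect without ligation was 1.97 ± 0.61 and lay just outside the threshold (adjusted p = 0.0550), passing with DESeq2 (adjusted p = 0.0470), without KC DSS replicate 3 (adjusted p = 0.0213) and without KC CBDL+DSS replicate 2 (adjusted p = 0.0466). The KC CBDL2w libraries held 11.3, 20.6, 18.1 and 12.0, within the span of the controls. Beside the Tlr7 result, the Kupffer cell genes took 0.497% to 0.631% of reads in KC DSS and 0.676% to 0.753% in KC Sham6w, and the classical monocyte genes 0.0325% to 0.0739% in KC DSS and 0.0146% to 0.0210% in KC Sham6w. None of these genes was at 0, and their part in the result was not tested.

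In MoMF and Mo no Tlr7 difference from Sham6w passed, and libraries of the same group lay far apart. MoMF Sham6w libraries held 24.8, 20.6 and 0, and the library at 0, of replicates 4 and 6, had 294183 reads, so that a count of 0 allows a level of up to 2.95. MoMF CBDL+DSS held 34.0, 30.1, 22.6 and 3.21, and Mo CBDL2w held 12.3, 14.4, 27.3 and 3.80. In each of these 3 groups the lowest library lay far below the rest. Over all injury groups MoMF libraries ranged from 0 to 34.0 (median 13.6), Mo libraries from 2.88 to 27.3 (median 11.6) and KC libraries from 1.79 to 26.6 (median 10.9).

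Tlr13 (ENSMUSG00000033777, chromosome X, 106143204 to 106160493, plus strand), which senses bacterial ribosomal RNA, had medians of 9.78 normalized counts in KC, 7.60 in MoMF and 8.49 in Mo. In Mo it stood at 10.5, 10.2, 8.49 and 9.04 in CBDL+DSS and at 11.5, 8.11, 7.93 and 15.2 in CBDL2w, against 2.62, 1.21 and 7.83 in Sham6w. Both injury groups lay above all 3 controls, as for 12.1% and 10.9% of genes tested. Replicate 4 of the controls came within 1 normalized count of the injury groups. The differences of 1.35 in CBDL+DSS (limma adjusted p = 0.0871) and 1.45 in CBDL2w (adjusted p = 0.0644) did not pass, and without Mo Sham6w replicate 4 they were 1.90 (adjusted p = 0.0298) and 2.00 (adjusted p = 0.0186).

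In control livers Tlr13 was higher in MoMF, at 24.8, 7.60 and 6.87 normalized counts, than in Mo, by a log2 difference of 1.54 ± 0.46 (limma adjusted p = 0.0327). The groups overlapped, and the MoMF value of 24.8 came from the shallowest library, of replicates 1, 2 and 5. Without it the difference was 0.99 (adjusted p = 0.286), without the Mo Sham6w library 1+2+5 it was 1.45 (adjusted p = 0.116) and without 3+6 it was 1.09 (adjusted p = 0.244). It also missed the threshold with edgeR (adjusted p = 0.124) and DESeq2 (adjusted p = 0.195), and with only single replicate numbers it turned to -0.04. KC libraries ranged from 3.66 to 15.2, and no injury difference passed there.

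**Figure D2:**
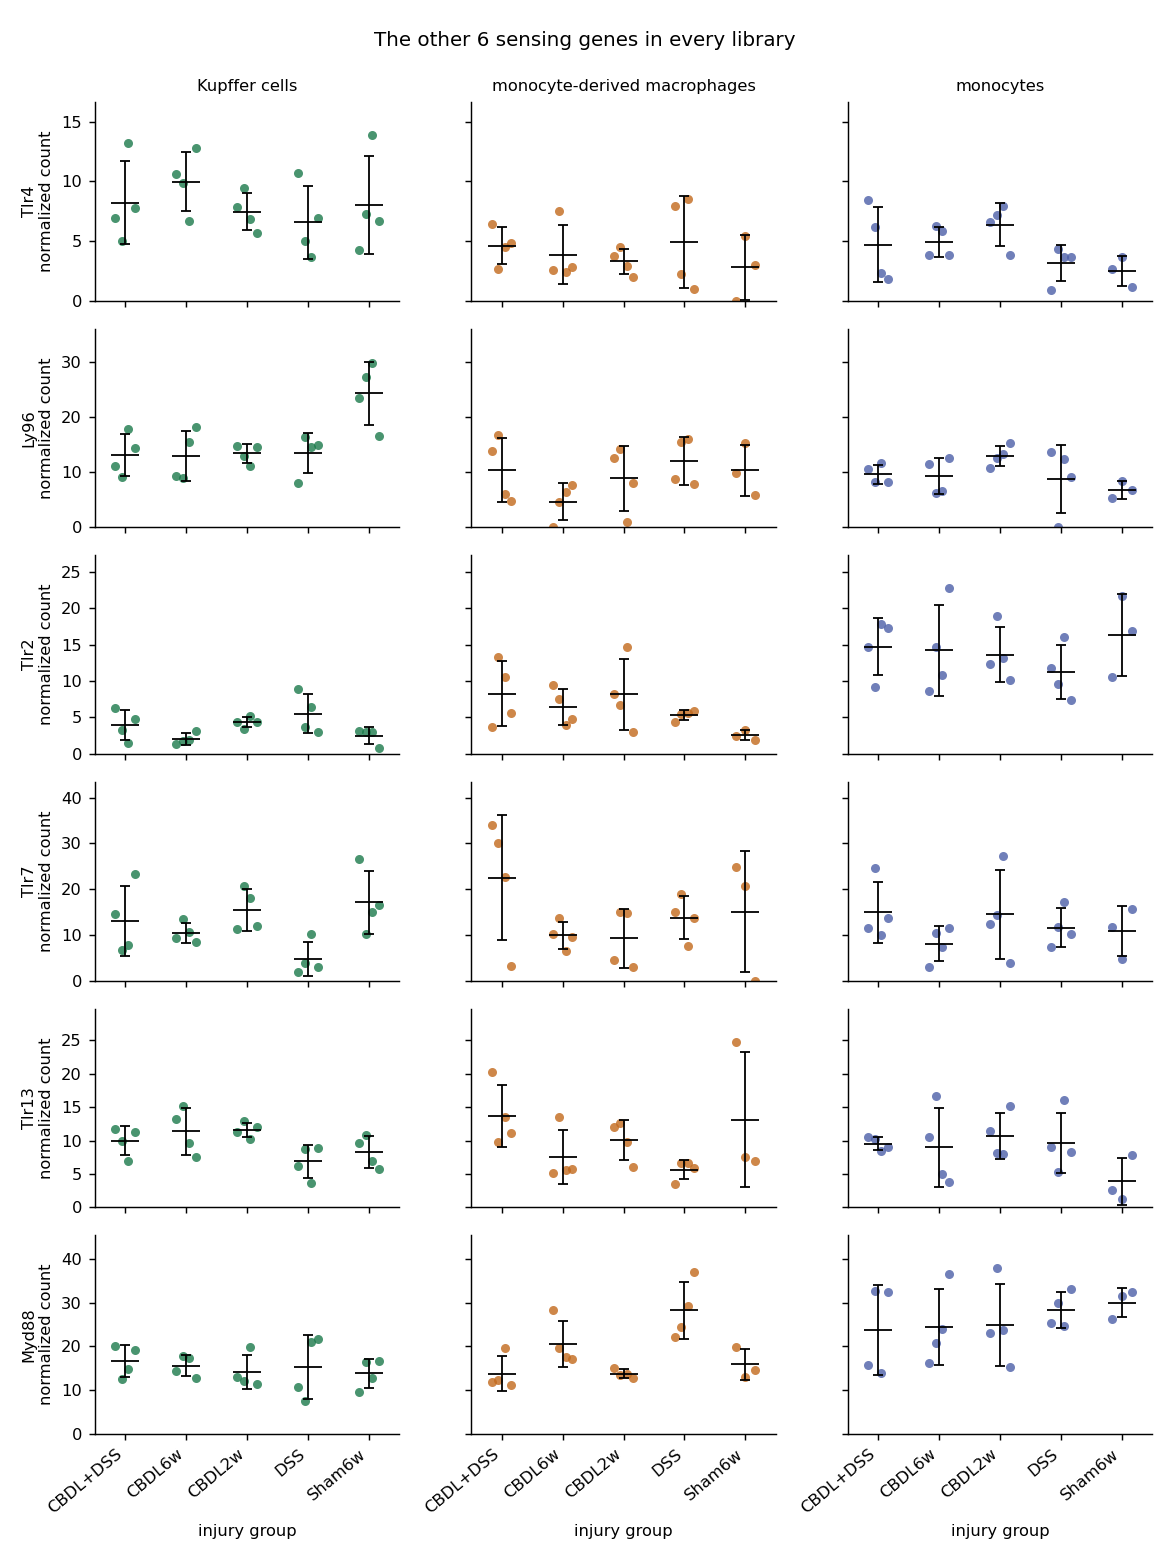
Tlr4, Ly96, Tlr2, Tlr7, Tlr13 and Myd88 in each library as normalized counts on the vertical axis, 1 gene in each row of panels and KC, MoMF and Mo in the columns, with the 5 injury groups along the horizontal axis; points are libraries and bars are the mean ± SD. Tlr7 in KC DSS sits at 1.79 to 10.1, below the KC Sham6w libraries at 10.3 to 26.6, and Tlr2 is higher in the Mo column than in the KC column.

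Myd88 (ENSMUSG00000032508, chromosome 9, 119335934 to 119341411, minus strand), the adaptor shared by these receptors, did not pass in any comparison of injury groups. Its annotated gene overlaps Acaa1a on the opposite strand, which averaged 13.1 normalized counts, and Slc22a14 on the same strand, and the strand of counting is not given in the sources used here, so its level is uncertain. KC libraries ranged from 7.51 to 21.8 (median 14.7), MoMF libraries from 11.2 to 36.9 (median 17.1) and Mo libraries from 13.9 to 37.8 (median 25.4). In MoMF the DSS libraries held 22.1, 24.4, 29.3 and 36.9, against 19.8, 13.0 and 14.7 in Sham6w. They lay above all controls, as for 6.19% of genes tested, and the difference of 0.78 did not pass (limma adjusted p = 0.200).

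Myd88 was lower in KC than in Mo in Sham6w and lower in KC than in both other cell types in DSS. In control livers KC libraries held 9.58, 16.4, 12.9 and 16.6 normalized counts, against 26.2, 31.4 and 32.4 in Mo. They lay wholly below Mo, as for 13.9% of genes tested, with a wide gap. The difference was -1.09 ± 0.32 (limma adjusted p = 0.0134), and it missed the threshold without KC Sham6w replicate 1 (adjusted p = 0.0608), without Mo Sham6w 3+6 (adjusted p = 0.0514) and without Mo Sham6w 4 (adjusted p = 0.0531), as well as with only single replicate numbers (adjusted p = 0.142). In DSS the KC libraries held 10.7, 7.51, 21.0 and 21.8, against 25.4, 30.0, 24.6 and 33.1 in Mo and the MoMF values above. KC lay below both, by -0.96 ± 0.30 against Mo (adjusted p = 0.0209) and -0.94 ± 0.30 against MoMF (adjusted p = 0.0269).

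These calls for Myd88 in DSS were not stable to leaving out libraries. Without KC DSS replicate 1 or 2 the adjusted p was 0.0821 and 0.158 against Mo and 0.0982 and 0.191 against MoMF (limma). Against Mo it was 0.0506 and 0.0664 without Mo DSS replicate 2 and 4, and against MoMF 0.0610 and 0.107 without MoMF DSS replicate 3 and 5+6. Without the filter on low genes it was 0.0709 against Mo and 0.0949 against MoMF. The dissociation response genes took 0.241% to 0.425% of reads in KC DSS, against 0.615% to 0.801% in MoMF DSS and 0.665% to 0.915% in Mo DSS, and their part in the result was not tested. For Tlr4, Tlr2, Tlr7, Tlr13 and Myd88 all neighbours in the order of the 15 group means overlapped.

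The members that passed are set here beside the share of all genes that passed in the same comparison. In KC, of 6 members tested, the numbers that passed against Sham6w were 0 in CBDL+DSS, 0 in CBDL6w, 0 in CBDL2w and 1 in DSS, where 3.31%, 3.25%, 2.71% and 7.89% of the 6159 genes tested passed. In MoMF they were 1, 0, 1 and 0 of 6, where 9.80%, 1.22%, 3.06% and 2.07% of 6079 genes passed. In Mo they were 1, 0, 1 and 0 of 6, where 13.1%, 11.2%, 13.8% and 1.59% of 6112 genes passed. Where limma gave 0, unadjusted p was under 0.05 for 2 members in KC CBDL+DSS, 2 in KC CBDL2w, 1 in MoMF DSS, 1 in Mo DSS and 3 of 18 in CBDL6w over the 3 cell types, and edgeR and DESeq2 gave 0 in each.

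Between injury groups no member passed. For CBDL6w against CBDL2w, 0% of genes passed in KC, 0.0823% in MoMF and 0% in Mo, and 3 of the 18 member tests had an unadjusted limma p under 0.05, with 0 calls by edgeR and DESeq2. Over all genes that comparison had 449 at an unadjusted p under 0.05 in KC and 404 in Mo, 0 calls by edgeR in both, and 10 and 9 by DESeq2. For CBDL+DSS against CBDL6w, 1.74% of genes passed in KC, 4.16% in MoMF and 0.573% in Mo, again with 3 of 18 member tests under 0.05 unadjusted, 0 calls by edgeR and 1 by DESeq2. The effect of colitis with ligation minus that without passed for 6.02% of genes in KC, 2.09% in MoMF and 0.311% in Mo and for 0 members, with 4 of 18 under 0.05 unadjusted, 0 by edgeR and 1 by DESeq2.

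**Figure D3:**
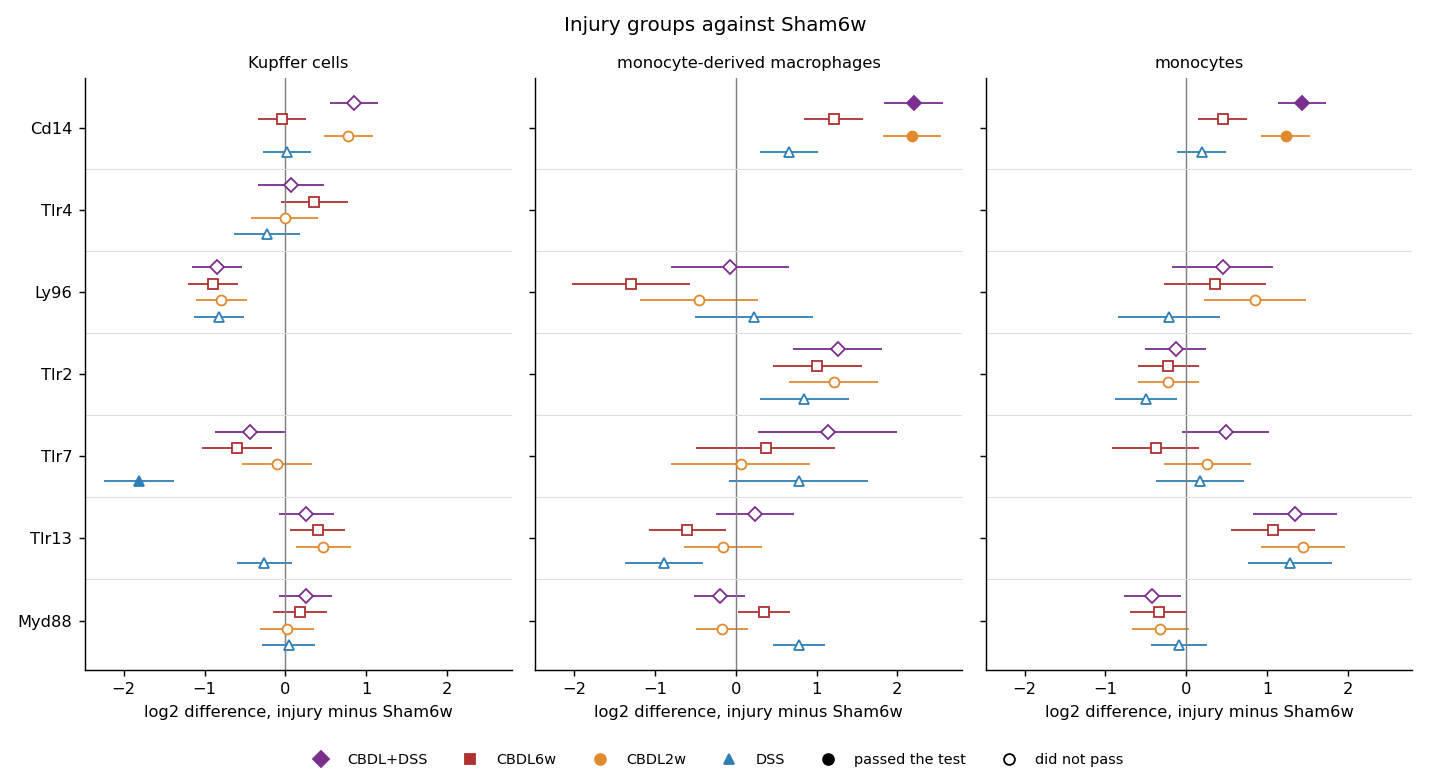
Log2 difference of each member between an injury group and Sham6w, ± SE, in KC, MoMF and Mo; filled points passed the limma test at an adjusted p under 0.05 and members that could not be tested are absent. Cd14 stands at 2.20 and 2.18 in MoMF CBDL+DSS and CBDL2w and at 1.43 and 1.23 in Mo, and Tlr7 at -1.81 in KC DSS.

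Cell types were compared within each injury group over 7 members and 7555 genes. Of KC against Mo, 2 members passed in CBDL+DSS, 2 in CBDL6w, 2 in CBDL2w, 2 in DSS and 4 in Sham6w, where 14.4%, 15.3%, 14.4%, 14.7% and 16.0% of genes passed. Of MoMF against Mo, 1, 1, 1, 1 and 3 members passed in the same order, where 4.29%, 2.16%, 2.01%, 2.32% and 6.15% of genes passed. Of KC against MoMF, 0, 1, 0, 1 and 1 members passed, where 4.88%, 9.66%, 6.63%, 13.5% and 15.9% of genes passed. The 0 counts in CBDL+DSS and CBDL2w had 2 members each at an unadjusted p under 0.05 and 0 by edgeR and DESeq2. In Sham6w the median of all genes in KC against MoMF was 0.14 by limma and 0.03 by edgeR, and in MoMF against Mo it was -0.12 by limma and 0 by edgeR.

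The difference of the injury effect between cell types passed for 0 of 7 members in each of 12 comparisons, with 15 of 84 member tests at an unadjusted limma p under 0.05 and 0 calls by edgeR and DESeq2. Between KC and MoMF, 1.99% of genes passed for CBDL+DSS, 0.397% for CBDL6w, 0.344% for CBDL2w and 0.860% for DSS. Between KC and Mo these shares were 0.821%, 1.58%, 1.67% and 0.238%, and between MoMF and Mo 2.12%, 0.649%, 1.38% and 0.0397%. The rise of Cd14 in MoMF and Mo is therefore not shown to differ from the smaller difference in KC.

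**Figure D4:**
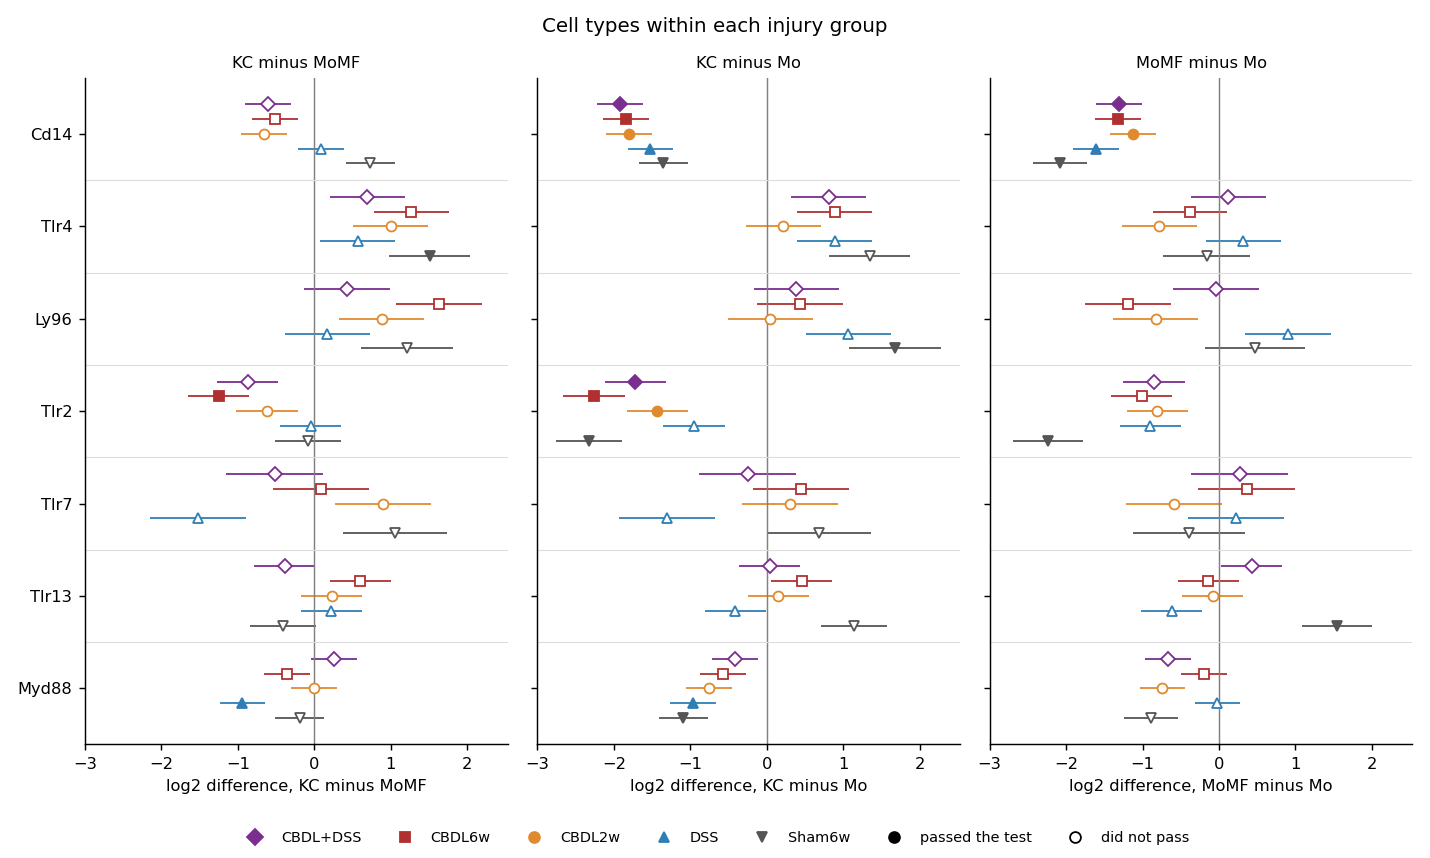
Log2 difference of each member between cell types, KC minus MoMF, KC minus Mo and MoMF minus Mo, ± SE, in the 5 injury groups; filled points passed the limma test at an adjusted p under 0.05. Cd14 lies between -1.92 and -1.35 in KC minus Mo in all 5 groups, and Tlr2 between -2.32 and -0.95.

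Genes induced downstream of these receptors were followed as a list of 12. In MoMF, of 7 that could be tested, 2 were higher and 0 lower in CBDL2w than in Sham6w, where 3.06% of all genes passed, with a median of 0.83 over the list and 0.03 over all genes. Cxcl2, a neutrophil chemokine, averaged 575 ± 128 normalized counts in MoMF CBDL2w and 89.9 ± 8.81 in MoMF Sham6w (SD), a difference of 2.64 ± 0.26 (limma adjusted p = 2.46e-06), and Il1b, the cytokine interleukin-1 beta, rose by 1.28 (adjusted p = 0.0239). In MoMF CBDL+DSS, where 9.80% of all genes passed, 1 was higher and 0 lower, Cxcl2 at 357 ± 134 and a difference of 1.91 (adjusted p = 7.07e-05), and the list median of 0.02 was no higher than the 0.08 of all genes. In MoMF DSS, where Cd14 did not pass and 2.07% of all genes did, 2 were higher and 0 lower, Cxcl2 (1.15, adjusted p = 0.0241) and Il1b (1.25, adjusted p = 0.0378), with a list median of 1.02 beside 0.06 for all genes. In MoMF CBDL6w, where 1.22% of all genes passed, 1 was lower and 0 higher, the chemokine Ccl3 (-1.65, adjusted p = 0.0404). Cxcl2 in MoMF was lower in CBDL6w, at 119 ± 6.94, than in CBDL2w (-2.24, adjusted p = 2.5e-05).

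In Mo, of 9 induced genes tested, 2 were higher and 1 lower in CBDL+DSS and 2 higher and 0 lower in CBDL2w, where 13.1% and 13.8% of all genes passed. The list median was 0.28 in CBDL+DSS and 0.09 in CBDL2w, beside -0.07 and -0.10 for all genes. Saa3, an acute phase protein, averaged 97.5 ± 12.2 normalized counts in Mo CBDL+DSS and 75.7 ± 37.7 in Mo CBDL2w, against 8.56 ± 8.52 in Mo Sham6w, with differences of 3.85 (limma adjusted p = 0.000457) and 3.34 (adjusted p = 0.00105). It was also the 1 gene of the list that passed in Mo CBDL6w (2.78, adjusted p = 0.00641) and Mo DSS (3.24, adjusted p = 0.0243). Cxcl2 averaged 1025 ± 249 in Mo CBDL+DSS and 1059 ± 211 in Mo CBDL2w, against 353 ± 83.6 in Mo Sham6w (adjusted p = 0.00274 and 0.00143). The gene that fell in Mo CBDL+DSS was Tnf, the cytokine tumour necrosis factor, at 15.7 ± 9.41, against 44.1 ± 8.14 in Mo Sham6w (-1.62, adjusted p = 0.0263). In KC, 1 of 7 was higher in each of CBDL+DSS, CBDL6w and CBDL2w and 0 lower, which was Cxcl2 in CBDL+DSS (1.63, adjusted p = 0.0484) and Saa3 in CBDL6w (2.70, adjusted p = 0.0231) and CBDL2w (2.80, adjusted p = 0.0174). Saa3 averaged 11.4 ± 9.21 in KC CBDL6w and 10.8 ± 3.76 in KC CBDL2w, against 0.871 ± 1.18 in KC Sham6w. The Saa3 controls of KC and Mo averaged below the filter of 10 normalized counts. Saa3 could therefore enter these tests through the groups where it was high.

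In control livers many induced genes were lower in KC. Against Mo, where 16.0% of all genes passed, 8 of 9 tested were lower and 0 higher, with a median of -2.55, while the median of all genes was -0.01. Ptgs2, the inducible cyclooxygenase, averaged 1.10 ± 0.971 normalized counts in KC Sham6w and 60.8 ± 4.54 in Mo Sham6w (limma adjusted p = 6.86e-12), Il1b 66.0 ± 12.6 in KC and 386 ± 20.8 in Mo (adjusted p = 7.6e-09), and Nfkbiz, an NF-kB cofactor, 37.8 ± 13.5 in KC and 237 ± 20.3 in Mo (adjusted p = 2.79e-06). Against MoMF, where 15.9% of all genes passed, 5 of 9 were lower in KC and 0 higher, with a median of -1.41 beside 0.14 for all genes. The dissociation response genes, which moved the same way, are given above, and their part was not tested.

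Of the brakes of the pathway, a list of 12 genes, 7 could be tested between cell types. In control KC against Mo, where 16.0% of all genes passed, 3 were lower and 0 higher, with a median of -1.59 beside -0.01 for all genes. Against MoMF, where 15.9% of all genes passed, 1 was lower, Nfkbia. The 3 lower than in Mo included Tnfaip3, the deubiquitinase A20, at 11.7 ± 3.47 normalized counts in KC Sham6w and 101 ± 9.87 in Mo Sham6w (-3.03, limma adjusted p = 5.7e-07), and Nfkbia, the NF-kB inhibitor, at 261 ± 37.9 in KC Sham6w and 785 ± 33.2 in Mo Sham6w (-1.59, adjusted p = 1.03e-06). The comparison of control KC with Mo had 1 higher and 1 lower of 15 adaptors and kinases, Pik3ap1, the adaptor BCAP (1.06, adjusted p = 0.0350), and Ikbkb, a kinase that releases NF-kB (-1.19, adjusted p = 0.0204), and 1 lower and 0 higher of 8 transcription factors, Rel, an NF-kB subunit (-2.23, adjusted p = 2.09e-05). Tnip1, a partner of A20, fell in KC DSS to 6.04 ± 3.82, against 33.6 ± 8.16 in KC Sham6w (-2.52, adjusted p = 0.00276), in the same comparison as Tlr7. It was the single brake of 5 tested that passed there, where 7.89% of all genes passed.

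Among 6 genes for receptor folding and trafficking, Unc93b1, which carries the endosomal receptors TLR7 and TLR13 out of the endoplasmic reticulum, was higher in control KC than in the other cell types. It averaged 158 ± 28.3 normalized counts in KC Sham6w, 48.6 ± 31.8 in MoMF Sham6w and 75.5 ± 20.5 in Mo Sham6w, with differences of 2.00 (limma adjusted p = 6.22e-06) and 1.08 (adjusted p = 0.0125), and was the 1 of 6 tested that passed in each comparison. That count is near the share of all genes that passed, 15.9% against MoMF and 16.0% against Mo. In MoMF CBDL+DSS, where 9.80% of all genes passed, Unc93b1 rose to 156 ± 24.4 (1.98, limma adjusted p = 0.00278). Slc15a4, an endosomal transporter needed for TLR7 signalling, fell there to 17.2 ± 8.41, against 52.0 ± 13.9 in MoMF Sham6w (-1.68, adjusted p = 0.00966). Hsp90b1, the chaperone gp96 that folds Toll-like receptors, fell in Mo, with differences of -1.35 in CBDL+DSS (adjusted p = 0.000849), -0.98 in CBDL6w (adjusted p = 0.00961) and -1.26 in CBDL2w (adjusted p = 0.00105), as 1 of 5 tested in each. In the same comparisons 13.1%, 11.2% and 13.8% of all genes passed.

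Of 10 other Toll-like receptors and relatives, 3 could be tested in MoMF, and Tlr1, the partner of TLR2, rose there. It averaged 11.8 ± 6.95 normalized counts in MoMF CBDL+DSS and 13.8 ± 6.85 in MoMF CBDL2w, against 2.07 ± 1.80 in MoMF Sham6w (2.15 and 2.40, limma adjusted p = 0.0290 and 0.0315). In these comparisons 9.80% and 3.06% of all genes passed. The Tlr1 controls averaged below the filter of 10 normalized counts, so the gene could enter the test through the groups where it was high. Of 3 genes for endotoxin transfer and clearance tested in Mo, 2 were higher and 0 lower in CBDL+DSS, 1 higher and 1 lower in CBDL6w, and 2 higher and 1 lower in CBDL2w. The shares of all genes that passed there were 13.1%, 11.2% and 13.8%. Itgam, the integrin CD11b, rose in CBDL+DSS (1.10, adjusted p = 0.00041), CBDL6w (0.57, adjusted p = 0.0426) and CBDL2w (1.07, adjusted p = 0.000286), and Cd36, a scavenger receptor that endothelial cells also express, fell in CBDL6w (-3.48, adjusted p = 0.00467) and CBDL2w (-3.74, adjusted p = 0.00188). Cd36 did not pass in Mo CBDL+DSS. Outside Mo, Itgam (-1.08, limma adjusted p = 0.0349) and Cd36 (-2.64, adjusted p = 0.0296) were lower in KC DSS than in KC Sham6w, where 7.89% of all genes passed. Itgb2, also of this list, was lower in MoMF CBDL+DSS than in MoMF Sham6w (-0.67, limma adjusted p = 0.0346). The endothelial genes took 0.00906% to 0.0197% of reads in Mo CBDL6w, and their shares in Mo CBDL+DSS, CBDL2w and Sham6w are given above with Cd14. The part of these genes was not tested.

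The genes whose pattern was most like each member's were found by Pearson's r of the mean log2(normalized count + 1) over the 15 groups, which share libraries, depth and size factors. For Cd14 they were Lyz2, the lysozyme of myeloid cells (r = 0.952), Slc7a11, a cystine transporter (r = 0.947), and Thbs1, thrombospondin (r = 0.943), and over the 58 libraries r was still 0.789 to 0.864. For Tlr2 they were Notch1 (r = 0.929), Clec4e, the lectin Mincle (r = 0.918), and Slc7a11 again (r = 0.917). Myd88 was most like Ndrg1 (r = 0.919), Prkar2b (r = 0.911) and Cd300lg (r = 0.899), and Tlr4 most like Arap1 (r = 0.957), Zfp90 (r = 0.897) and Dip2c (r = 0.892). Over the 58 libraries r was 0.527 to 0.783 for the genes named for Tlr2, 0.613 to 0.661 for those of Myd88 and 0.411 to 0.496 for those of Tlr4. The highest r was 0.828 for Ly96 (Zfp281, then Rnf128 and Rnf169), 0.817 for Tlr7 (Sdf4, then Ngrn and Adipor1) and 0.813 for Tlr13 (Mospd3, then Ube2e3 and Atg16l2). Over the 58 libraries r was 0.204 for Zfp281, 0.229 for Sdf4 and 0.282 for Mospd3 with these members.

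Among the members themselves Cd14 and Tlr2 ran closest over the 15 groups (r = 0.85), ahead of Tlr2 and Myd88 (r = 0.68) and Tlr4 and Ly96 (r = 0.67). Cd14 and Tlr4, the co-receptor and its receptor, had an r of -0.07, and Tlr13 and Myd88 an r of -0.59. The pairs Cd14 with Tlr2 and Tlr2 with Myd88 share high levels in Mo and low levels in KC, and Tlr4 with Ly96 the reverse.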

How the data were processed

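Libraries of 3 cell types in 5 injury groups were made with a 3' kit with unique molecular identifiers (UMI). Per the submitters' processing notes, the build was GRCm38.p6 and the tools included RSEM 1.3.1, DESeq2, STAR 2.7.5b, UMI-tools 1.0.1 and Trimmomatic 0.39. No source used here says whether UMIs were collapsed or which strand was counted. The deposited values are normalized counts, a signal in which the authors divided each library by its own size factor. Dividing by the smallest step of each library gave whole reads for 100.0% of values within 0.01, with size factors of 0.404 to 1.675. Of the gene IDs, 25272 were matched to GENCODE M21 symbols and 35 were not.

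Genes were kept at 10 normalized counts in at least 3 libraries, and log2(value + 1) was fitted with limma 3.58.1 in R 4.3.3, 1 fit per cell type over its 5 groups and 1 over all groups for comparisons between cell types, with Benjamini-Hochberg adjustment over all genes tested. Reads recovered from the steps were fitted with edgeR 4.0.16 and DESeq2 1.42.0 as alternatives. The limma fits were run on simulated counts for CBDL6w against Sham6w, drawn with a shared spread for all genes. In KC, MoMF and Mo, 9.5%, 8.2% and 3% of 2-fold changes and 90%, 67.7% and 74% of 4-fold changes were recovered. Most 2-fold changes were therefore missed. Of the calls, 6.6%, 16.7% and 12.5% were false. Tables used Python 3.11.15 and pandas 2.3.3. Other alternatives were a pseudocount of 5, no filter, equal library totals, a replicate block, 49 libraries of single replicate numbers, and each library left out. The level that a count of 0 allows is 3 reads, which covers counting error only.

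The members and the gene lists were chosen with earlier results of these data known. Named genes of the lists are those that passed, at most 3 per list and comparison by adjusted p; likeness names 3 genes per member. A marker gene of the classical monocyte list was left out and is not reported here. No library pair was identical, and the lowest chi-square per degree of freedom between replicates was 2.81. Replicates correlated across genes at r = 0.807 to 0.93.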

Additional observations from a re-analysis of the deposited data

Results flagged for a closer look

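In 6 of 91 combinations of a gene and a group of 4 libraries, 1 library lay far from the other 3, where chance gives about 1 in 20. Cd14 in KC CBDL+DSS replicate 6 was 54.9 normalized counts, with the other 3 libraries at 19.9 to 25.8. That library also had the highest share of dissociation response genes of its group, 0.804% of reads, against 0.335% to 0.492% in the others.

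In MoMF CBDL6w, replicate 2 stood apart for 3 members, with Cd14 at 43.7 (others 14.2 to 18.9), Tlr4 at 7.54 (others 2.40 to 2.84) and Tlr13 at 13.6 (others 5.15 to 5.69). In its 183043 reads the classical monocyte genes took 0.285%, against 0.162% to 0.178% in the others, and the Kupffer cell genes 0.161%, against 0.0254% to 0.0541%.

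Tlr2 in KC Sham6w replicate 4 was 0.830, below the other 3 at 2.98 to 3.19. Myd88 in MoMF CBDL+DSS replicate 3 was 19.6, above the other 3 at 11.2 to 12.4.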

How the results depend on the processing

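Of 315 member tests, 27 passed. Of these 27, 11 held in every alternative and 16 were lost in at least 1, while 13 others passed only in an alternative. Calls numbered 1 in KC, 2 in MoMF, 2 in Mo and 22 between cell types for injury and cell type comparisons, and 0 for both kinds of interaction. DESeq2 gave 1 for the colitis interaction. With only libraries of single replicate numbers there were 1 in MoMF, 0 in Mo and 14 between cell types, and Tlr13 in Sham6w, MoMF minus Mo, reversed to -0.04; the lone libraries are assumed to vary like the other groups. Leaving out 1 library gave 1 to 4 calls in Mo, 0 to 1 for the colitis interaction and 0 to 1 for the injury effect between cell types. Between cell types there were 15 calls without the filter and 20 with equal totals.

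Deviations of same-numbered libraries correlated weakly, at -0.0611 to 0.0950 across cell types (45 pairs) and -0.0552 to 0.0666 across injury groups (72 pairs). Across cell types the median was 0.0346, against -0.0108 for different numbers, and across injury groups 0.000809, against -0.000408. Weak correlation over many low genes cannot exclude that libraries of different cell types came from the same animals. With the replicate block the calls numbered 1, 2 and 2 in KC, MoMF and Mo, 23 between cell types and 0 for both interactions. Depth limits Tlr4 and Tlr2 most, with 79 reads of Tlr4 in all MoMF libraries and 88 of Tlr2 in all KC libraries.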
